A study of Mus musculus with 4 samples.

Results

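The Runx and Gata transcription factors examined here are *Runx1*, *Runx2*, *Runx3* and their partner *Cbfb*, together with *Gata2*, *Gata3*, *Gata4* and *Gata6*. They were chosen by gene symbol, 8 genes of 23732 matched in the count files, and they carry 21 of the 32757 RefSeq transcript IDs counted. Each gene is represented by its ID with the most reads over all libraries, and the other IDs are given beside it. Total RNA depleted of rRNA was sequenced from immortalized mouse dermal fibroblasts (imMDFs), 2 libraries of *Tmpo* KO cells (genotype Lap2alpha -/-) and 2 of *Tmpo* WT cells (Lap2alpha +/+). Replicate 1 of each genotype was at passage 34 and replicate 2 at passage 42, all cells grew in the same serum-containing medium, and no library was treated. *Tmpo* KO cells lack LAP2alpha, a protein of the nuclear interior that binds lamin A/C, through deletion of exon 4 of *Tmpo*. The sources name 1 immortalized line per genotype, so the knockout cannot be told apart from any other difference between the lines. Nothing names separate cultures beyond the passage, so p-values cover no more than the variation among the 4 libraries, which may be technical.

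RUNX proteins bind DNA through a runt domain, and CBFB, which does not itself contact DNA, raises their affinity. In the mouse, *Runx1* is needed for definitive blood stem cells, *Runx2* for osteoblasts, and *Runx3* for cytotoxic T cells and for proprioceptive sensory neurons. GATA factors bind the letters GATA through zinc fingers. *Gata2* and *Gata3* are best known from blood progenitors, T cells and skin epithelium, *Gata4* and *Gata6* from the heart and the endoderm, and several of these factors are also expressed in mesenchymal cells.

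The 3 Runx genes share a pair of words of the RUNX binding type at one of their starts, and these stretches are shown because the Runx genes have the pair in common. RefSeq promoter windows (GRCm38.p6, 250 bases before to 50 after a start) were at hand for 6 of the 8 genes, as 9 windows. A pair of AACCACA words with any 1 base between them, searched on both strands, occurred in 5 of 32851 windows of all genes (0.0152%), those of *Runx1*, *Runx2*, *Runx3*, *Gm16225* and *Olfr24*. In the stretches of 30 bases below, written 5′ to 3′ on the gene's strand, capitals mark this pair. They lie at chr16:92826026-92826055 on the minus strand, chr17:44814584-44814613 on the minus strand and chr4:135120502-135120531 on the plus strand. The first capital is base 28 after the start in *Runx1*, base 23 after it in *Runx2* and 135 bases before it in *Runx3*.
Runx1: tcataaacAACCACAGAACCACAagttggg
Runx2: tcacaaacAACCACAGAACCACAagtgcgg
Runx3: ggtccctcAACCACAGAACCACAaggccag

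For *Runx3*, the Runx gene that differed between genotypes, the 250 bases before the distal start (chr4:135120395-135120644, plus strand, GRCm38.p6) read as follows, with the same capitals.
Runx3 distal: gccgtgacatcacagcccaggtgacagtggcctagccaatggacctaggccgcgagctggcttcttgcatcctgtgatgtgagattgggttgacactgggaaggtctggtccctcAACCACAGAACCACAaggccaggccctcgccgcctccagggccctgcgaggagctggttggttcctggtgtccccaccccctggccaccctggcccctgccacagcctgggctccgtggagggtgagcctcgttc
The shorter letters ACCACA, also searched on both strands and held 2 times by the pair, occurred in 16.8% of all windows. Neither form was found in the proximal windows of *Runx1* and *Runx3*, in that of *Cbfb* or in those of *Gata2* and *Gata3*. The letters GATA with A or T before them and A or G after them, searched on both strands, were found in 29.8% of all windows and, among the 9, only in that of *Gata3*. A match is a description of the letters. The counts were made per ID and do not separate the 2 starts of *Runx3*.

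The libraries held between 12168433 and 19603812 reads given to a transcript ID, which was 31.4% to 36.7% of each file. Reads that match more than 1 ID were set aside as ambiguous (between 12.1% and 13.4%), so a gene with several IDs was counted only where its transcripts differ. The LAP2alpha transcript of *Tmpo* had 6 and 6 counts in *Tmpo* KO and 903 and 1324 in *Tmpo* WT, each pair giving passage 34 and then passage 42, as do all pairs of values here. These counts fit the genotypes in the labels. Fibroblast markers summed to between 11826 and 15463 CPM (counts per 1000000 reads given to IDs) in *Tmpo* KO and between 12895 and 13501 in *Tmpo* WT, with 8 of 10 at 1 CPM or more in every library. Leukocyte, endothelial, keratinocyte, mast cell and cardiac or endoderm markers each summed to at most 22.6 CPM in every library. These sums can understate the markers, since some with several IDs, the leukocyte genes *Ptprc*, *Cd68* and *Itgam* and the fibroblast gene *Pdgfrb* among them, had hardly any read unique to an ID and were not measured. Markers of osteoblasts and chondrocytes summed to 70.0 and 60.6 CPM in KO and 121 and 202 CPM in WT. Most of this was *Sox9*, at 59.8 and 55.6 CPM in KO and 115 and 193 CPM in WT. CPM of single tested genes, here and below, were scaled by TMM factors between 0.979 and 1.03, and the marker sums were not.

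Of the 8 genes, 6 had at least 1 CPM in both replicates of a genotype and were tested among 13855 IDs with edgeR's quasi-likelihood test. *Runx3* rose and *Gata6* fell in *Tmpo* KO at a Benjamini-Hochberg adjusted p under 0.05, the call used throughout, and *Runx2*, *Gata2*, *Gata3* and *Gata4* did not pass. Of all IDs tested, 2.75% were called, 1.51% higher and 1.24% lower in KO. The genotypes did not overlap in 3 of the 6 genes, *Runx3* with KO above WT (21.9% of all IDs) and *Gata2* and *Gata6* with KO below WT (19.9%), against 41.9% of all IDs in either direction, so a lack of overlap alone sets no gene apart. An unadjusted p under 0.05 was reached by 2 of the 6, against 12.8% of all IDs. Replicate number and passage coincide, and with that number as a block 1092 IDs passed edgeR in place of 381, while *Runx3* and *Gata6* were still the 2 called of the 6. The median log2 fold change was −0.14 over the 6 genes and 0.02 over all IDs. In bulk RNA, more cells with a transcript and more transcript per cell cannot be told apart.

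**Figure D1:**
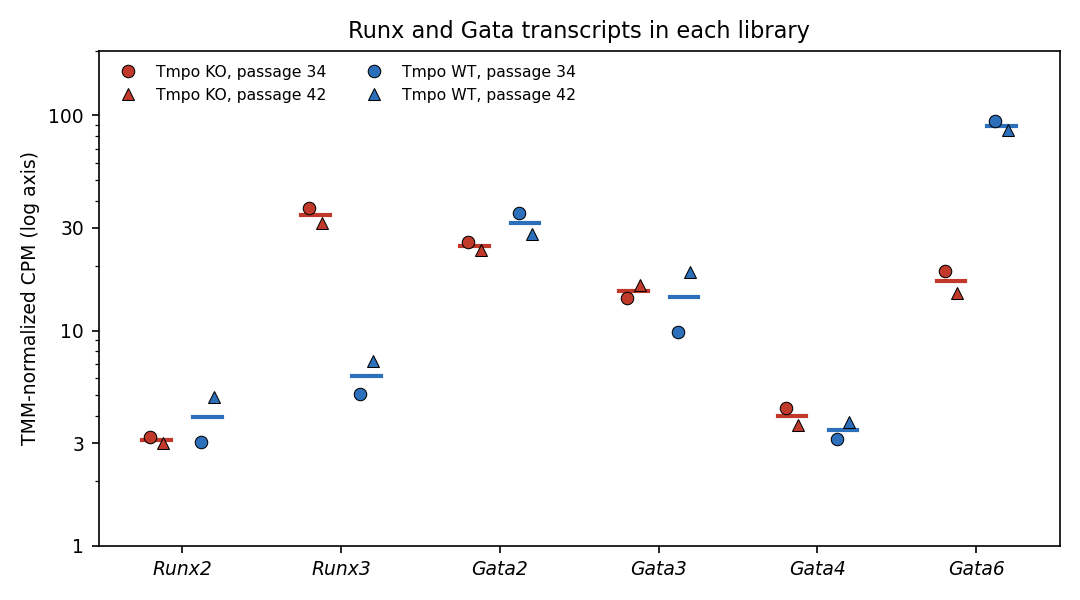
TMM-normalized CPM on a log axis for the 6 tested genes, 1 point per library (red, *Tmpo* KO; blue, *Tmpo* WT; circles, passage 34; triangles, passage 42), with the mean of each genotype as a bar. *Runx3* lies at 37 and 31.8 CPM in KO and 5.05 and 7.21 CPM in WT, and *Gata6* at 19 and 15 CPM in KO and 93.9 and 85.4 CPM in WT. Within each other gene the means of the genotypes lie closer together.

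*Runx3* (NM_019732, its only ID in the files) spans 134676567 to 134733905 of chromosome 4 in mm9 (plus strand). It had 601 and 613 counts in *Tmpo* KO at passages 34 and 42, and 60 and 113 counts in *Tmpo* WT. Both KO libraries were far above both WT libraries, and the lower KO library held 4.41 times the CPM of the higher WT library. *Runx3* averaged 34.4 ± 3.68 CPM in KO and 6.13 ± 1.53 CPM in WT (SD, n = 2 each), a log2 fold change of 2.48 (standard error, SE, 0.296, 95% interval 1.83 to 3.13, edgeR quasi-likelihood adjusted p = 0.00127) or 5.58-fold. The ratio of KO to WT was 7.33 at passage 34 and 4.41 at passage 42. The WT libraries differed 1.43-fold from each other and the KO libraries 1.16-fold. *Runx3* ranked 65th of the 13855 IDs by increase. It overlaps *Gm16224*, a gene of the other strand, but not in its exons.

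*Gata6* (NM_010258, its only ID) spans 11052508 to 11085633 of chromosome 18 in mm9 (plus strand). It had 308 and 289 counts in *Tmpo* KO and 1115 and 1337 counts in *Tmpo* WT. Both KO libraries were below both WT libraries at either passage, by 4.94-fold at passage 34 and 5.69-fold at passage 42. *Gata6* averaged 17 ± 2.81 CPM in KO and 89.6 ± 6.04 CPM in WT (SD, n = 2 each), a log2 fold change of −2.40 (SE 0.233, 95% interval −2.91 to −1.89, edgeR quasi-likelihood adjusted p = 0.000334). It ranked 47th by decrease. Chromosome 18 as a whole leaned the other way, with a median log2 fold change of 0.35 over 412 IDs, against 0.13 over 847 IDs of chromosome 4 and 0.02 over all IDs.

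An exon of *Gata6* overlaps an annotated noncoding gene of the other strand, and whether the counting used strand is not stated in the labels or methods read here. The opposite-strand transcript *Gata6os* (NR_105023), looked up after the values of *Gata6* were seen, had 25 and 29 counts in *Tmpo* KO and 16 and 17 in *Tmpo* WT. Its log2 fold change of 0.33 (SE 0.419, edgeR adjusted p = 0.853) did not pass, and its level was far below that of *Gata6* in every library.

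*Runx2*, the osteoblast regulator (chromosome 17, 44632936 to 44951746, minus strand, mm9), is split over 8 IDs, of which 4 had any count. The noncoding ID NR_073425 had the most, with 52 and 58 counts in *Tmpo* KO and 36 and 77 in *Tmpo* WT. The coding ID NM_001145920 had 32 and 62 counts in KO and 36 and 49 in WT. In both IDs the genotypes overlapped. The log2 fold change was −0.36 for NR_073425 (95% interval −1.23 to 0.50, adjusted p = 0.816 from edgeR) and −0.24 for NM_001145920 (95% interval −1.13 to 0.65, adjusted p = 0.897). NR_073392, another noncoding ID, had 14 and 16 counts in KO and 1 and 6 in WT, which was under the limit for testing. Without that limit its log2 fold change was 1.74 and did not pass (edgeR adjusted p = 0.521). NM_001271627 had 0 and 3 counts in KO and 2 and 3 in WT. Summed over its IDs, *Runx2* had 98 and 139 counts in KO and 75 and 135 in WT, with a log2 fold change of −0.19 (edgeR adjusted p = 0.900). These reads cover only what distinguishes the transcripts, and exons of *Runx2* overlap *Gm10497* of the other strand.

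*Runx1* and *Cbfb* were not measured by these counts. None of the 4 IDs of *Runx1* had a count in any library, which allows up to 3 reads unique to an ID, or between 0.153 and 0.247 CPM. Of the 4 IDs of *Cbfb*, 1 had a count, with 0 and 1 reads in *Tmpo* KO and 1 and 0 in *Tmpo* WT. Reads in exons that IDs of a gene share were set aside, so a count of 0 says nothing about the level of the blood stem cell regulator *Runx1* or of the shared partner *Cbfb*. On mm9, *Runx1* spans 92601712 to 92826311 of chromosome 16 (minus strand) and *Cbfb* 107694574 to 107741886 of chromosome 8 (plus strand).

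The other Gata genes, each with 1 ID, did not pass. *Gata2* (NM_008090, chromosome 6, 88143885 to 88157024, plus strand) had 420 and 459 counts in *Tmpo* KO and 419 and 441 in *Tmpo* WT, or 25.9 and 23.8 CPM in KO and 35.3 and 28.2 CPM in WT. Its KO libraries lay below its WT libraries by a margin within the spread, and the log2 fold change of −0.35 (95% interval −0.89 to 0.19, adjusted p = 0.658 from edgeR) did not pass. *Gata3* (NM_008091, chromosome 2, 9778705 to 9811661, minus strand) had 228 and 313 counts in KO and 117 and 295 in WT. Its WT libraries lay on either side of the KO libraries, and its log2 fold change was 0.07 (95% interval −0.67 to 0.82, adjusted p = 0.969). Exons of *Gata3* overlap annotated genes of both strands. *Gata4* (NM_008092, chromosome 14, 63817759 to 63890529, minus strand) had 71 and 70 counts in KO and 37 and 59 in WT. Its log2 fold change was 0.21 (95% interval −0.60 to 1.03, adjusted p = 0.902), and the genotypes overlapped. The intervals of these 3 genes and of *Runx2* do not show equal levels in the genotypes.

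**Figure D2:**
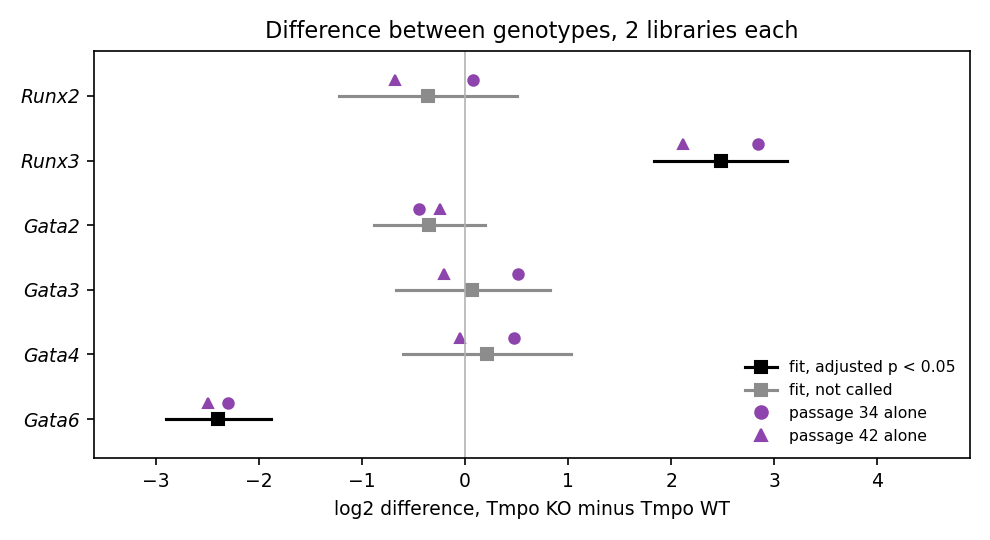
Log2 difference of *Tmpo* KO minus *Tmpo* WT for the 6 tested genes, from the fit (squares, with the 95% interval as a line; black where the adjusted p was under 0.05, gray otherwise) and within passage 34 (circles) and passage 42 (triangles), each of which compares 1 library per genotype and has no error. *Runx3* at 2.48 and *Gata6* at −2.40 stand apart from 0 at both passages, and the intervals of the other 4 genes include 0.

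Per length, the order of the Gata genes and *Runx3* differed between genotypes. CPM were divided by the length of the longest coding transcript in GENCODE vM1, between 3194 and 3884 bases, which may differ from that of the counted ID. In *Tmpo* KO the level was 8.86 ± 0.947 CPM per kb for *Runx3*, 7.67 ± 0.458 for *Gata2*, 5.32 ± 0.886 for *Gata6*, 4.73 ± 0.484 for *Gata3* and 1.18 ± 0.154 for *Gata4* (SD, n = 2 each). Neither *Runx3* and *Gata2* nor *Gata6* and *Gata3* differed there by more than the sum of their SDs. In *Tmpo* WT the level was 28.1 ± 1.88 CPM per kb for *Gata6*, 9.80 ± 1.55 for *Gata2*, 4.46 ± 1.97 for *Gata3*, 1.58 ± 0.393 for *Runx3* and 1.01 ± 0.135 for *Gata4*. *Gata6* led the 5 genes in both WT libraries and stood below *Runx3* and *Gata2* in both KO libraries, while *Runx3* stood below *Gata6*, *Gata2* and *Gata3* in both WT libraries and led in both KO libraries. *Gata4* was the lowest of the 5 in every library.

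Between passages no gene of the group passed. With genotype held as a block, none of the 6 passed edgeR's quasi-likelihood test for passage 42 against passage 34, 0 had an unadjusted p under 0.05 (11.6% of all IDs) and 0 passed with DESeq2, against 2.31% of all IDs called by edgeR. The nearest to passing was *Gata3*, with a log2 fold change of 0.56 (SE 0.301, edgeR adjusted p = 0.469). It had 16.3 CPM at passage 42 and 14.1 CPM at passage 34 in KO, and 18.8 CPM at passage 42 and 9.85 CPM at passage 34 in WT. *Runx3* had 0.10 (SE 0.289) and *Gata6* −0.23 (SE 0.224).

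Likeness of profile was measured by Euclidean distance of log2 CPM (after a prior count of 2), centred over the 4 libraries. The transcripts most like *Runx3* were *Htr1b* at a distance of 0.28, *Kcnb2* at 0.29 and *Pygl* at 0.39. *Htr1b*, a serotonin receptor gene, had 44 and 36 counts in *Tmpo* KO and 3 and 5 in *Tmpo* WT, and *Kcnb2*, a potassium channel gene, had 65 and 86 counts in KO and 7 and 14 in WT. *Pygl*, the liver form of glycogen phosphorylase, had 79 and 112 counts in KO and 9 and 14 in WT. *Htr1b*, *Kcnb2* and *Pygl* were each under 1 CPM in both WT libraries and reached the limit for testing only through KO. Nearest to *Gata6* were *Tmem26* at 0.01, *Mustn1* at 0.09 and *Scrn1* at 0.19. *Tmem26* had 27 and 25 counts in KO and 103 and 123 in WT, *Mustn1* 85 and 83 in KO and 309 and 356 in WT, and *Scrn1* 130 and 137 in KO and 521 and 545 in WT. With 4 libraries such likeness is a description, and it selects transcripts with the same difference between genotypes.

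The genes next to *Runx3* and *Gata6* on the chromosome did not pass. By a rule set after the values of *Runx3* and *Gata6* were seen, the nearest 2 tested genes on each side were taken, 8 in all. None of the 8 passed edgeR's quasi-likelihood test (2.75% of all IDs), 0 had an unadjusted p under 0.05 (12.8% of all IDs), and 0 passed with DESeq2. The closest was *Clic4*, a chloride channel gene 36.0 kb after *Runx3*, with 596 and 567 CPM in *Tmpo* KO and 525 and 493 CPM in *Tmpo* WT, a log2 fold change of 0.19 (SE 0.202, edgeR adjusted p = 0.811). *Syf2*, 183 kb before *Runx3*, had 0.02 (SE 0.244), and *Mib1*, a ubiquitin ligase gene of Notch signaling 234 kb before *Gata6*, had 0.41 (SE 0.204, edgeR adjusted p = 0.451). The first tested gene after *Gata6*, *Riok3*, lay 1202 kb away.

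Other GATA-type zinc finger genes and the partners of GATA factors did not pass. Of all IDs tested, 2.75% were called and 12.8% had an unadjusted p under 0.05, so 0 calls do not set lists this small apart. Of 7 tested GATA-type genes, 0 were called by edgeR's quasi-likelihood test, 0 had an unadjusted p under 0.05 and 0 passed with DESeq2, and their median log2 fold change was −0.01. *Trps1*, a GATA-type repressor of cartilage and hair follicles, had 602 and 1427 counts in *Tmpo* KO and 902 and 1536 in *Tmpo* WT, a log2 fold change of −0.65 (SE 0.300, edgeR adjusted p = 0.408). The erythroid factor *Gata1* had −0.60, *Gatad1* −0.20 and the germ cell gene *Zglp1* 0.41. Of 14 tested partners of 18 listed, 0 were called, 2 had an unadjusted p under 0.05 and 0 passed with DESeq2, with a median of 0.09. The 2 were *Nfatc4*, a calcium-responsive partner of GATA4 in mouse heart, at 1.05 (SE 0.381, edgeR adjusted p = 0.237) and *Zfpm1*, the cofactor FOG1, at 0.50 (SE 0.222, edgeR adjusted p = 0.375). The cofactor gene *Zfpm2* (FOG2) had 2747 and 5182 counts in KO and 2404 and 5168 in WT, a log2 fold change of −0.28, and the cardiac T-box gene *Tbx20* had 0.81. With 1 library left out, that genotype is left at a single passage, so genotype and passage are mixed in such values. Without KO replicate 2, *Trps1* had −1.23, *Tbx20* 1.22 and *Nfatc4* 0.61. Without KO replicate 1, *Trps1* had −0.23, *Tbx20* 0.23 and *Nfatc4* 1.38. *Trps1* passed edgeR with the replicate number as a block (−0.71, adjusted p = 0.0106). It was also called between passages (edgeR adjusted p = 0.047), with 37.1 and 74.1 CPM in KO and 76 and 98.1 CPM in WT. Unless another setting is named, the values of this and the following paragraphs are from the same fit.

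Genes reported as GATA targets in other tissues did not pass either. Of 24 listed, 11 were tested and 0 were called, against 2.75% of all IDs. None passed with DESeq2, and the median log2 fold change was 0.18 against 0.02 over all IDs. An unadjusted p under 0.05 was reached by 1, against 12.8% of all IDs. The one was *Lmo4*, a LIM-only factor, with 667 and 435 counts in *Tmpo* KO and 200 and 318 in *Tmpo* WT, a log2 fold change of 0.77 (SE 0.310, edgeR adjusted p = 0.301). *Dab2*, an endocytic adaptor that depends on GATA6 in mouse endoderm, had 0.51, the growth factor gene *Bmp4* −0.62 and the nuclear receptor gene *Hnf4g* 0.40. Without KO replicate 2, *Lmo4* (1.14, adjusted p = 0.0032) and *Bmp4* (−1.71, adjusted p = 0.00029) passed edgeR. *Aspa*, which depends on *Gata6* in mouse peritoneal macrophages, had 14 and 71 counts in KO and 4 and 11 in WT, was under the limit for testing and was picked out after its values were seen. Its log2 fold change without that limit was 2.09 (edgeR adjusted p = 0.00782). The heart genes *Myh6* and *Tnni3* and the endoderm gene *Sox17* were under the limit as well, with at most 28 counts in any library.

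**Figure D3:**
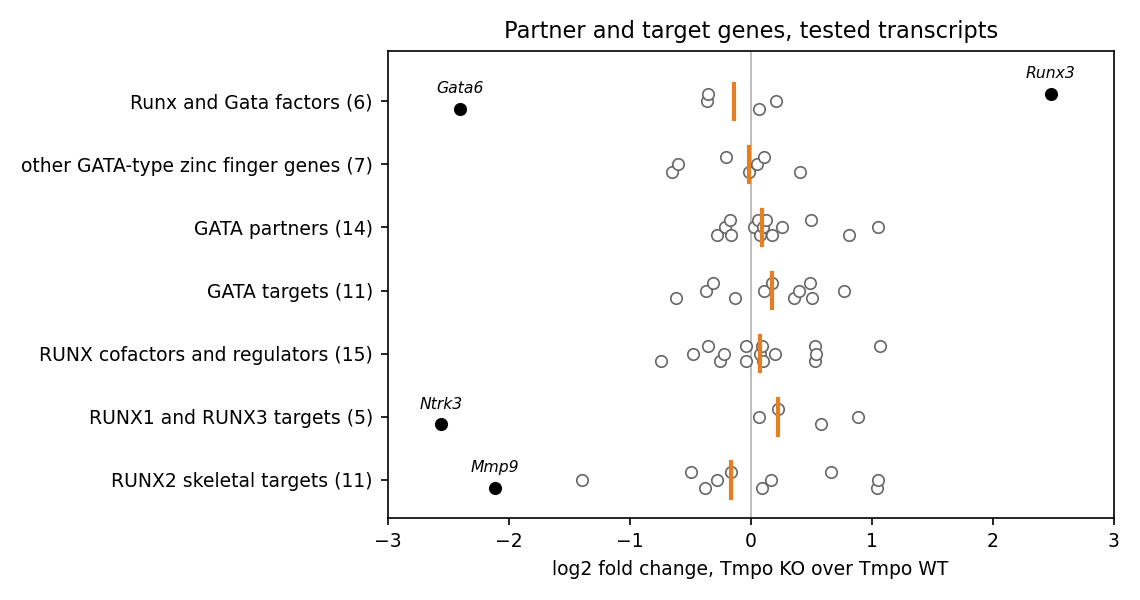
Log2 fold change of *Tmpo* KO over *Tmpo* WT for each tested gene (circles; filled where the adjusted p was under 0.05) in the group and in 6 lists of partners and targets, with the number tested in brackets and the median as an orange line. Among the filled points are *Runx3* at 2.48, *Gata6* at −2.40, *Ntrk3* at −2.56 and *Mmp9* at −2.11, and the medians lie between −0.16 and 0.23.

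Of the RUNX cofactors and regulators, 15 of 24 were tested and 0 were called by edgeR, against 2.75% of all IDs. An unadjusted p under 0.05 was reached by 2, against 12.8% of all IDs. None passed with DESeq2, and the median log2 fold change was 0.08. Each of the 9 not tested has several IDs. *Twist1*, which restrains RUNX2 in mouse osteoblasts, had 2277 and 3203 counts in *Tmpo* KO and 1190 and 1752 in *Tmpo* WT, a log2 fold change of 0.53 (SE 0.200, edgeR adjusted p = 0.262). *Hey1*, a repressor induced by Notch, had 63 and 44 counts in KO and 19 and 21 in WT, a log2 fold change of 1.07 (SE 0.440, edgeR adjusted p = 0.324). In both genes the KO libraries lay above the WT libraries. *Zfp521*, which encodes a zinc finger repressor of RUNX2 in the mouse, had 1218 and 3397 counts in KO and 1725 and 2306 in WT. Its log2 fold change over all 4 libraries was −0.22 (SE 0.32, edgeR adjusted p = 0.876), and the genotypes overlapped. Between passages *Zfp521* was called (edgeR adjusted p = 0.0409). Without KO replicate 2, which leaves KO at passage 34 alone, *Hey1* had 1.40 and *Zfp521* −0.97. *Zfp521* is named for that last value, after its values were seen. *Twist1* passed with the replicate number as a block (0.53, adjusted p = 0.0492). The deacetylase gene *Hdac4* had 0.54 and *Smad5*, an effector of BMP signals, −0.74.

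Of 36 genes reported as RUNX targets, 20 were not tested, and 11 of those 20 have several IDs, so their few or absent counts do not give their level. Over all 6 lists of partners and targets, 63 of 109 distinct genes were tested and 2 were called (3.17%, against 2.75% of all IDs), both lower in KO. *Ntrk3* encodes the neurotrophin receptor TrkC of the sensory neurons that need *Runx3* in the mouse. *Ntrk3* had 14 and 21 counts in KO and 64 and 98 in WT, or 0.977 ± 0.161 CPM in KO and 5.82 ± 0.613 CPM in WT (SD, n = 2 each), a log2 fold change of −2.56 (SE 0.408, edgeR adjusted p = 0.00642). *Ntrk3* reached the limit for testing only through WT, the genotype where it was higher, so its call is no support for a direction of the list, and with 1 CPM needed in all 4 libraries the list had 0 calls. An unadjusted edgeR p under 0.05 was reached by 2 of the 5 tested genes of this list, against 12.8% of all IDs. The 4 tested genes other than *Ntrk3*, listed for RUNX1 and RUNX3 in blood and other cells, did not pass, and the median over the 5 was 0.23. Among them *Csf1r*, the receptor of the macrophage growth factor, had 174 and 178 counts in KO and 66 and 82 in WT (0.89, adjusted p = 0.238), the T cell gene *Cd4* had a log2 fold change of 0.58, and *Spi1*, which encodes the blood factor PU.1, 0.23. *Csf1r* is also 1 of the 10 leukocyte markers, which summed to 18.5 and 13.6 CPM in KO and 11.1 and 10.7 CPM in WT. These sums, which are not TMM-normalized, include *Csf1r*, which had 10.7 and 9.25 TMM-normalized CPM in KO and 5.56 and 5.24 in WT. Of the 10 markers, 5 were under 1 CPM in every library, 3 of these 5 with several IDs. The part of leukocytes in these values was not tested.

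Of 20 skeletal genes listed as RUNX2 targets, 11 were tested and 1 was called, against 2.75% of all IDs, with a median log2 fold change of −0.16. An unadjusted edgeR p under 0.05 was reached by 3 of the 11, against 12.8% of all IDs. *Mmp9*, a gelatinase of growth plate and bone, had 74 and 181 counts in *Tmpo* KO and 362 and 473 in *Tmpo* WT, or 6.98 ± 3.42 CPM in KO and 30.3 ± 0.205 CPM in WT (SD, n = 2 each). Its log2 fold change was −2.11 (SE 0.349, edgeR adjusted p = 0.00800), and without WT replicate 1 it no longer passed (−2.11, adjusted p = 0.0532). *Tnfrsf11b*, which encodes the RANKL decoy receptor osteoprotegerin, had 82 and 73 counts in KO and 155 and 160 in WT, with a log2 fold change of −1.39 (SE 0.339) that just missed the threshold (adjusted p = 0.0574) and passed with DESeq2 (adjusted p = 0.00703), with the replicate number as a block (edgeR adjusted p = 0.0014) and without KO replicate 1 (0.00314) or KO replicate 2 (0.0325). Without WT replicate 1 its adjusted p was 0.479, and without WT replicate 2 it was 0.119. The collagenase gene *Mmp13* had 1.04 and *Tnfsf11*, which encodes RANKL itself, 1.05, and neither passed. *Mmp13*, with 24 and 26 counts in KO and 7 and 12 in WT, reached the limit for testing only through KO. *Tnfsf11* had 1.62 without KO replicate 2 and 0.11 without KO replicate 1. Of the genes that define osteoblasts, *Ibsp* had 17 and 14 counts in KO and 11 and 12 in WT, and *Alpl*, which has several IDs, 16 and 11 in KO and 8 and 6 in WT. *Bglap*, the osteocalcin gene, had no count in any library, and reads that match its close copies could have been lost to it, so its level is uncertain.

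Beside these genes, *Sox9*, the master regulator of cartilage, was lower in *Tmpo* KO, with 971 and 1071 counts in KO and 1363 and 3018 in WT, a log2 fold change of −1.41 (SE 0.254, edgeR adjusted p = 0.0125). *Acan*, the cartilage proteoglycan aggrecan, had a log2 fold change of 0.19 and *Sp7*, an osteoblast factor, 0.09, and neither passed. *Col2a1*, the cartilage collagen, had 0 and 4 counts in KO and 30 and 59 in WT, and it reached the limit for testing only through WT. The part of *Sox9* and *Col2a1* in the difference of *Mmp9* was not tested. Among the 9 tested fibroblast markers, *Thy1* alone was called by edgeR without a block, against 2.75% of all IDs. With the replicate number as a block, 2 of the 9 were called, and 1092 of all 13855 IDs. *Thy1* had 20957 and 14838 counts in KO and 3743 and 4307 in WT, a log2 fold change of 1.80 (SE 0.268, edgeR adjusted p = 0.00469). *Thy1* does not give the direction of its list, whose median over 9 tested genes was −0.33. *Col3a1* (0.68) and *Vim* (0.15) also lay above 0, while *Dpt*, *Lum*, *Pdgfra*, *Col1a2*, *Fn1* and *Col1a1* lay below it.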

How the data were processed

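Total RNA was measured by RNA sequencing in 4 libraries, grouped by genotype and replicate as the labels give them. The deposited values are raw counts, which the authors made by trimming adapters (cutadapt), mapping to mm9 (TopHat2 2.0.9) and counting reads of mapping quality above 20 per RefSeq transcript ID with HTSeq. Reads given to no ID were left out of library sizes: 49.9% to 56.5% of each file lay in no feature and 12.1% to 13.4% were ambiguous.

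IDs at 1 CPM or more in both replicates of a genotype (13855) were tested in R 4.3.3 with edgeR 4.0.16 (TMM factors, quasi-likelihood F-test as in earlier edgeR versions, Benjamini-Hochberg adjustment over all IDs). Passages were compared with genotype as a block. Each standard error is the fold change divided by the root of its F statistic. Within a passage, log2 CPM were compared after a prior count of 2 was added. An exact permutation test of 2 libraries against 2 cannot go below a two-sided p of 0.333. Symbols were matched to 32308 of 32757 IDs through RefSeq (GRCm38.p6, names only), and positions came from GENCODE vM1 on mm9. Intervals and floors cover the spread or the counting error of these libraries only.

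The genes of the group and the lists were chosen with earlier results of these data known. Named were the group, up to 4 genes per list with the smallest p and all called genes of a list, and the 3 nearest profiles of each called gene. Other genes are marked as chosen after their values were seen, and marker genes were named where they were called or define a cell type. Alternatives were RLE factors, library totals alone, DESeq2 1.42.0, no filter, 1 CPM in all 4 libraries, a likelihood ratio test, counts summed per gene, a replicate block, each library left out and, added after the data were seen, the quasi-likelihood method of newer edgeR. The tests were checked on simulated counts with known changes. Python 3.11.15, pandas 2.3.3 and matplotlib 3.10.9 were used for tables and plots.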

Additional observations from a re-analysis of the deposited data

Results flagged for a closer look

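In 3 of the 6 tested genes the difference between *Tmpo* KO and *Tmpo* WT had opposite signs at the 2 passages. These differences compare 1 library per genotype, with 0.5 added to each count, and the difference between passages was not tested, since no residual degrees of freedom are left for it. *Runx2* (NR_073425) had a log2 difference of 0.15 at passage 34 and −0.73 at passage 42. *Gata3* lay at 0.58 at passage 34 and −0.24 at passage 42. *Gata4* lay at 0.56 at passage 34 and −0.08 at passage 42. Opposite signs were seen in 40.7% of all 13855 IDs. *Runx3* (2.94 and 2.11), *Gata6* (−2.23 and −2.53) and *Gata2* (−0.37 and −0.26) kept 1 sign.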

How the results depend on the processing

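*Runx3* and *Gata6* were called under each of 13 alternatives, with a log2 fold change between 2.25 and 2.75 (adjusted p between 2.11e-14 and 0.0192) for *Runx3* and between −2.58 and −2.24 (adjusted p between 4.51e-22 and 0.00438) for *Gata6*, and the number of genes of the group called stayed at 2. With each library left out in turn it was also 2, on the assumption that the lone library of a genotype varies like those of the other. With the replicate number as a block, which is also the passage though no source names a shared culture, day or batch, 2 were also called (all IDs: 1092 against 381). Deviations of same-numbered libraries from the means of their genotypes had a correlation of 0.175 over 13855 IDs. With 2 libraries per genotype the 2 pairs mirror each other, so they are not independent. No gene of the group was called between passages under any of 5 alternatives. For passages, no library could be left out with residual degrees of freedom remaining. All IDs called for genotype numbered 740 with no filter, 638 with the likelihood ratio test, 543 with DESeq2 and between 156 and 1199 with a library left out, and for passage 48 with DESeq2 against 320. Signs turned only in values that passed no test: with a library left out *Gata3* ran from −0.31 (without WT replicate 1; −0.04 without KO replicate 2) to 0.61, *Runx2* from −0.66 to 0.02 (without WT replicate 2), *Zfpm2* from −0.66 to 0.10 (without WT replicate 2; 0.02 without KO replicate 1), and, lowest without KO replicate 1, *Cd4* from −0.01 to 1.01, *Spi1* from −0.11 to 0.51 and *Hnf4g* from −0.05 to 0.75, and *Gata4* between passages had 0.02 with no filter. The cause was not tested. Of 309 values of 24 named partner and target genes, 16 gained a call, 1 lost it (*Mmp9*) and 5 turned sign. *Ntrk3* was not tested where 1 CPM was needed in all 4 libraries. At this depth genes with few counts, and genes whose transcripts share most exons, could not be compared.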
